A study of Mus musculus with 47 samples.

Results

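Wild-type mouse cells kept in CHIR99021 were set against cells that carry no Tcf7l1 and received no CHIR99021. The first group, called WT ContinuedCH, comprised 3 arrays of wild-type cells grown in N2B27 medium with 12 ng/mL Fgf2 and 3 uM CHIR99021. The second, called KO EpiLC, comprised 3 arrays of Tcf7l1-/- cells grown in N2B27 with 12 ng/mL Fgf2 alone. Both groups therefore shared the basal medium and Fgf2, and differed in genotype and in CHIR99021. These 6 arrays are the members of the comparison, out of 47 Illumina expression arrays in the series, and they were taken by their titles and genotype labels. All 25697 probes were tested, and 23978 of them carried 1 gene symbol, which gave 16593 genes.

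Levels in 4 other groups of 3 arrays each are given beside these where they help to read a value. KO EpiLC+CH were Tcf7l1-/- cells, and WT EpiLC+CH were wild-type cells, that had 3 days of 12 ng/mL Fgf2 followed by 3 uM CHIR99021 for 24 h. WT EpiLC were wild-type cells in N2B27 with 12 ng/mL Fgf2 and no CHIR99021. WT ESC were wild-type embryonic stem cells in 1 uM PD0325901, 3 uM CHIR99021 and 1000 U/mL LIF. Further groups in the same set of 39 arrays were Tcf7l1-/- cells in ESC medium and cells without Tcf7, Tcf7l2 and Lef1 (3XKO) or without these and Tcf7l1 (4XKO), each as ESC, EpiLC and EpiLC+CH. The labels describe biological triplicates and do not give the number of clones per genotype, so each genotype may be 1 line, and a difference between lines cannot be told apart from the loss of Tcf7l1. They also do not give how long ContinuedCH cells, or EpiLC without CHIR99021, were in their medium.

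Tcf7l1, also called Tcf3, is the most abundant TCF/LEF factor of mouse embryonic stem cells and acts there mainly as a repressor, with genes of the pluripotency network among its targets. CHIR99021 inhibits the kinase Gsk3, which otherwise marks beta-catenin for destruction; stabilised beta-catenin both relieves Tcf7l1 repression and activates genes through other TCF/LEF factors. When embryonic stem cells are placed in Fgf2 they leave the naive state and become epiblast-like cells (EpiLC), which lose naive factors and gain genes of the formative epiblast. The comparison asks how far the chemical and the genetic way of lifting Tcf7l1 repression leave cells with the same transcriptome.

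Each array is described by the deposited intensity on a linear scale, given as the mean ± SD of 3 arrays (n = 3 in every group) or array by array. A value was counted as measured when it lay above 13.6, the size of the most negative value in the set of 39 arrays. On each array, 44.5 to 44.6% of probes lay above this limit. Differences are log2 differences from limma, ContinuedCH minus KO EpiLC, fitted over 39 arrays and adjusted by the Benjamini-Hochberg method over all probes; a gene is said to rise, fall or change when its adjusted p was under 0.05. The cultures were measured in bulk, so fewer cells of a kind and less RNA per cell cannot be told apart.

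The label of the mutant line was checked first. Tcf7l1, on chromosome 6, read 1947, 2127 and 1777 in ContinuedCH and 744, 688 and 680.4 in KO EpiLC. The groups did not overlap, and the level was 2.77-fold higher in ContinuedCH (log2 difference 1.47, 95% interval 1.26 to 1.68, adjusted p = 5.04e-11). WT EpiLC averaged 2018 ± 22, near the ContinuedCH level (log2 difference of ContinuedCH minus WT EpiLC -0.05, adjusted p = 0.88). The signal remaining in KO EpiLC was far above the limit. Whether the probe lies outside the deleted part is not known here, so that signal is not a measure of residual protein. In ESC medium the gap at this probe was larger. The log2 difference of Tcf7l1-/- cells minus WT ESC was -2.95 (limma adjusted p = 2.21e-17), and why it was smaller in EpiLC was not tested. Axin2, the scaffold protein that beta-catenin induces as a negative feedback, is the usual readout of pathway activity. It read 253, 253 and 229 in ContinuedCH and 97.7, 102 and 96.5 in KO EpiLC, a 2.48-fold difference (log2 1.31, adjusted p = 5.03e-07). Both lay above WT EpiLC, which averaged 23.4 ± 3.6, and ContinuedCH lay near the 234 ± 20.5 of WT EpiLC+CH.

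The 2 groups were closer to each other than either was to WT EpiLC. Over 11574 probes whose mean lay above the limit, correlations of log2 intensity were 0.984 to 0.987 among ContinuedCH arrays and 0.984 to 0.995 among KO EpiLC arrays. Across the 2 groups they were 0.965 to 0.978, against 0.916 to 0.924 for ContinuedCH with WT EpiLC and 0.91 to 0.918 for KO EpiLC with WT EpiLC. KO EpiLC arrays 2 and 3 were the closest pair and were not identical. Over all 25697 probes, ContinuedCH array 2 lay nearest a KO EpiLC array, whereas over the probes above the limit it lay nearest its own group.

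ContinuedCH and KO EpiLC differed at 2037 of 25697 probes, or 7.93%. Of these, 987 were higher and 1050 were lower in ContinuedCH. With 1 probe per gene, 747 of 16593 genes were higher (4.5%) and 793 were lower (4.78%). Among the 7775 genes above the limit on every array of either group, 701 were higher (9.02%) and 726 were lower (9.34%). Against WT EpiLC, 1851 genes were higher (11.2%) and 1749 lower (10.5%) in ContinuedCH, and 2097 were higher (12.6%) and 1992 lower (12%) in KO EpiLC; these 2 comparisons share the WT EpiLC arrays. The count between ContinuedCH and KO EpiLC depended on how the spread was estimated. With the spread taken from the compared groups alone instead of all 13 groups, 718 probes were called, 297 higher and 421 lower. Of the 105 called genes named here, 36 were not called in that fit: Acta1, Actg2, Apc, Car4, Ccnd1, Cdx2, Dppa4, Eif1a, Etv5, Fos, Fst, Fzd10, Gadd45b, Gata3, Gbx2, Klf5, Krt18, Map2, Nt5e, Plcd1, Porcn, Sfrp1, Slc2a3, Socs3, Tcstv3, Tfap2a, Tle4, Tpm2, Trh, Trib3, Vim, Zscan4c, Ccdc136, Fam83e, Minar2 and Def8. When each of the 6 arrays was left out in turn, 83 of the 105 kept their call every time.

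**Figure D1:**
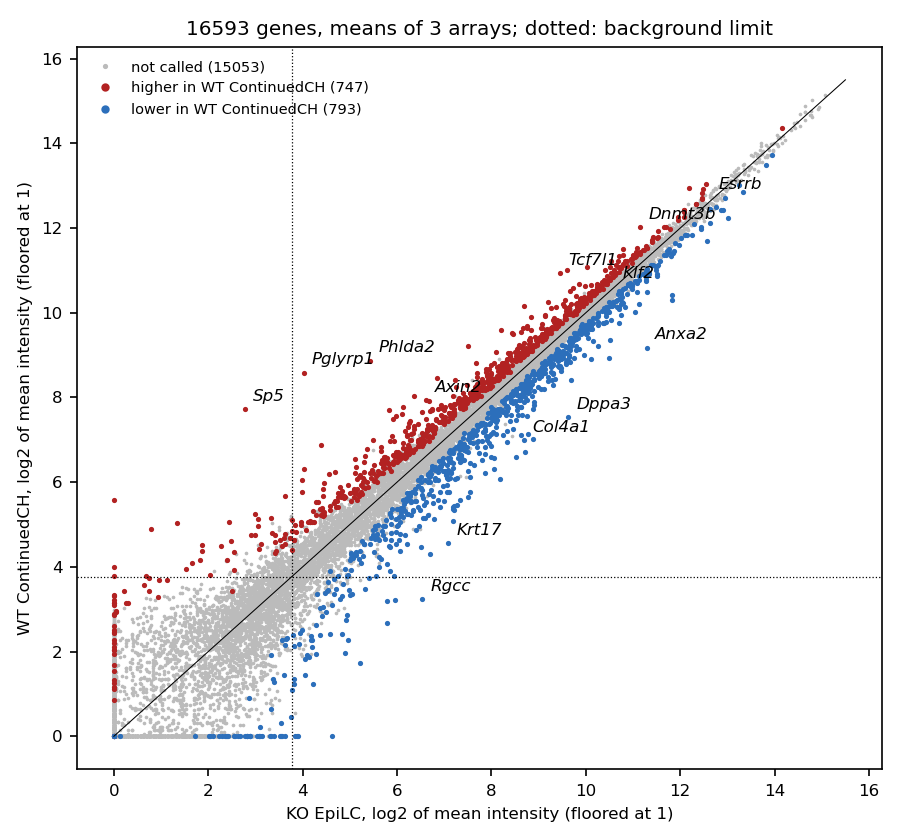
Mean log2 intensity of 16593 genes in ContinuedCH (vertical axis) against KO EpiLC (horizontal axis), 3 arrays each. Red points are the 747 genes higher and blue points the 793 genes lower in ContinuedCH at an adjusted p under 0.05, and grey points are the other genes.

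The promoters of 2 genes are shown because both genes belong to the beta-catenin targets higher in ContinuedCH and their promoters hold letters that TCF/LEF factors recognise. The 7 letters CTTTGAT, or ATCAAAG on the other strand, were searched in the 250 bases before and 50 bases after each start in RefSeq, build GRCm38.p6. They occurred in 1225 of 32851 promoters (3.73%). Of 19 measured genes in the list of Wnt and beta-catenin targets, 12 had promoters in the table, 16 in all, and 2 of these held the letters. Sp5 lies at chr2:70474673-70474972 on the + strand with the letters at -104 from the start, and Tnfrsf19 at chr14:61037938-61038237 on the - strand with the letters at -202. Both are printed 5′ to 3′ with the letters in capitals, and a match is a description of the sequence, not a bound site.
Sp5: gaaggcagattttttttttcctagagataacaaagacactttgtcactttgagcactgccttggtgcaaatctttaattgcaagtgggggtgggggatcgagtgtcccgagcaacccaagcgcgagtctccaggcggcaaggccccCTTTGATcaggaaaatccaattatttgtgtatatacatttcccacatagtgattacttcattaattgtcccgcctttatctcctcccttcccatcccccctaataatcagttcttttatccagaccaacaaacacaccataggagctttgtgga
Tnfrsf19: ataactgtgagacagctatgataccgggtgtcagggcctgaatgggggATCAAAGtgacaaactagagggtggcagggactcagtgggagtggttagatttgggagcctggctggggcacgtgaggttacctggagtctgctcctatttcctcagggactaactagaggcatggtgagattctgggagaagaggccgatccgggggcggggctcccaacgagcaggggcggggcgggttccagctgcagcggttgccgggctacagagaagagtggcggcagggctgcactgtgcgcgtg

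Genes that beta-catenin is known to induce were higher in ContinuedCH wherever they were called. Of 19 measured members, 6 rose in ContinuedCH and 0 fell, with a median log2 difference of 0.58, against 4.5% higher and 4.78% lower over all genes and a median of 0. The shares of 4.5% and 4.78% over all genes stand against each list count of ContinuedCH against KO EpiLC that follows. Among the 7775 genes above the limit on every array of either group, the shares were 9.02% higher and 9.34% lower. These are the closer reference for lists of well-measured genes, and a single call in a list is near one set of shares or the other. Sp5, a zinc-finger factor induced directly by Wnt signalling, read 210.3, 213 and 212 in ContinuedCH and 4.7, 7.3 and 8.5 in KO EpiLC. All 3 KO EpiLC arrays were below the limit, so ContinuedCH was at least 15.6-fold higher (adjusted p = 1.23e-10). CHIR99021 for 24 h gave 255 ± 34.5 in KO EpiLC+CH and 988 ± 157 in WT EpiLC+CH. Tnfrsf19, a receptor of the tumour necrosis factor family also known as Troy, read 210.2, 199 and 216 in ContinuedCH and 38.9, 63.8 and 68.7 in KO EpiLC, a 3.76-fold difference (adjusted p = 1.04e-08).

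Notum, a secreted enzyme that inactivates Wnt ligands, read 276, 257 and 259 in ContinuedCH and 77.7, 71.3 and 98.1 in KO EpiLC, a 3.24-fold difference (adjusted p = 1.38e-10). After 24 h of CHIR99021 it was below the ContinuedCH level, at 77.5 ± 3.8 in KO EpiLC+CH and 48.9 ± 3.9 in WT EpiLC+CH, while WT ESC averaged 246 ± 7.8. Ccnd1, the cyclin D1 gene, averaged 2375 ± 237 in ContinuedCH and 1642 ± 20.2 in KO EpiLC (log2 difference 0.53, adjusted p = 0.000146). The other called member, Cdx2, a homeobox gene, was above the limit on 1 ContinuedCH array and lost its call without ContinuedCH array 1, KO EpiLC array 2 or KO EpiLC array 3 (adjusted p up to 0.073). Fzd7, a Wnt receptor and the brightest member that did not pass, averaged 486 ± 89.6 in ContinuedCH and 402 ± 6.8 in KO EpiLC, both below the 1034 ± 44.5 of WT EpiLC. The zinc-finger gene Sp8 averaged 30.8 ± 1.5 in ContinuedCH and 16.7 ± 5.3 in KO EpiLC (adjusted p = 0.0557) and was called without KO EpiLC array 1 (0.0285). The homeobox gene Cdx1 averaged 22.9 ± 6.6 in ContinuedCH and 11.5 ± 5.4 in KO EpiLC (adjusted p = 0.092) and was called without KO EpiLC array 2 (0.0305). The number of members that rose was 5 to 7 when each array was left out in turn, and 4 when the spread came from ContinuedCH and KO EpiLC only. ESC medium held CHIR99021 for both genotypes, and there Notum and Tnfrsf19 were also lower in Tcf7l1-/- cells. The log2 differences of Tcf7l1-/- cells minus WT ESC were -1.22 and -1.12 (limma adjusted p = 7.74e-08 and 5.62e-05). Ccnd1 was higher (0.34, adjusted p = 0.0113), and Axin2 (0.02), Sp5 (0.54) and Cdx2 (0.61) were not called.

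**Figure D2:**
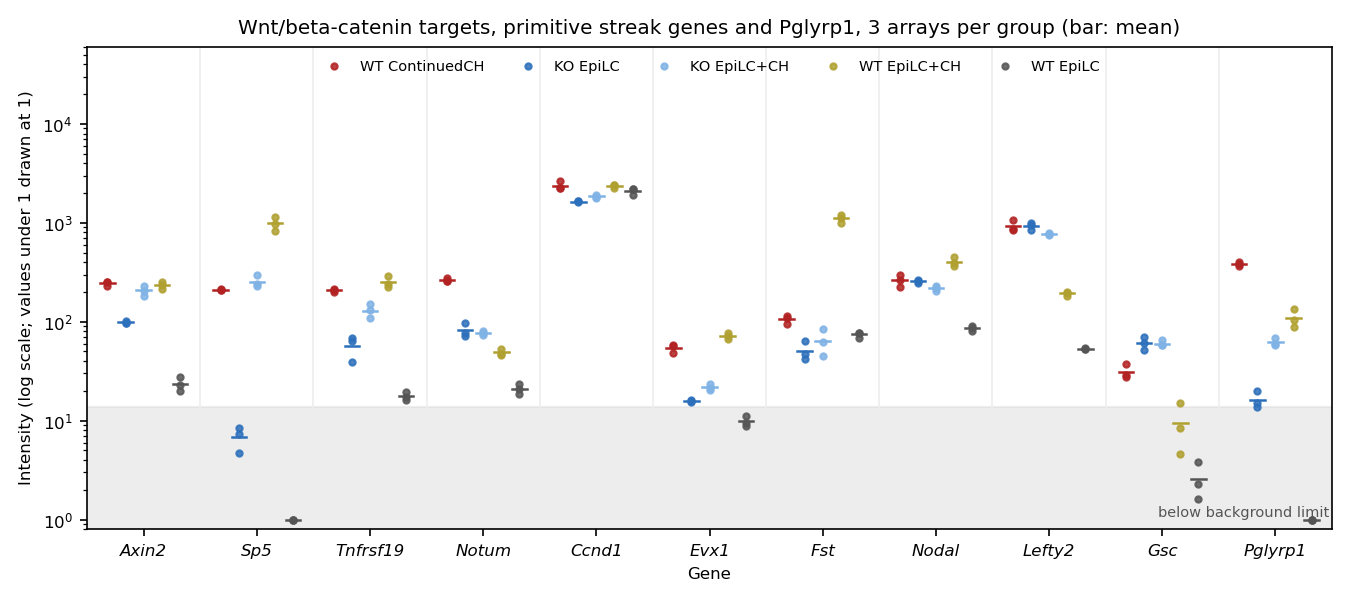
Intensity (log10 axis) of 11 Wnt, streak and Nodal pathway genes in every array of ContinuedCH, KO EpiLC, KO EpiLC+CH, WT EpiLC+CH and WT EpiLC; values under 1 are drawn at 1 and the grey zone lies below the limit. Sp5 sits between 210.3 and 213 in ContinuedCH and below the limit in KO EpiLC, while Nodal and Lefty2 overlap between these 2 groups.

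Among TCF/LEF factors other than Tcf7l1, Lef1 averaged 26.8 ± 7.8 in ContinuedCH and 7.5 ± 0.32 in KO EpiLC, at least 1.92-fold higher (adjusted p = 0.000206), and WT EpiLC averaged 68.6 ± 5.1. Tcf7l2 averaged 55.9 ± 9.6 in ContinuedCH and 60.5 ± 8.3 in KO EpiLC (adjusted p = 0.89). Tcf7 was not matched to a probe. Of 23 measured ligands, receptors and pathway components, 4 rose and 1 fell, with a median log2 difference of 0.23, against 4.5% higher and 4.78% lower over all genes; 1 of 23 is near that share. Sfrp1, a secreted Wnt antagonist, was the member that fell, at 418 ± 49.5 in ContinuedCH and 693 ± 45.1 in KO EpiLC (log2 difference -0.73, adjusted p = 8.17e-06). Porcn, the acyltransferase needed for Wnt secretion, averaged 1076 ± 44.5 in ContinuedCH and 805 ± 95 in KO EpiLC (log2 difference 0.42, adjusted p = 0.00299), and was at 66 ± 5.1 in WT EpiLC. Tle4, a corepressor that binds TCF factors, averaged 2622 ± 194 in ContinuedCH and 2057 ± 113 in KO EpiLC (log2 difference 0.35, adjusted p = 0.00366). Its 2 other probes, which were dimmer, averaged 56 and 29 in ContinuedCH and 56 and 30 in KO EpiLC and were not called (log2 differences -0.01 and -0.02). The receptor gene Fzd10 averaged 365 ± 65 in ContinuedCH and 241 ± 55.5 in KO EpiLC. Apc, part of the beta-catenin destruction complex, averaged 52.4 ± 2.4 in ContinuedCH and 38.2 ± 4.1 in KO EpiLC. The call of Fzd10 was lost without ContinuedCH array 1 or KO EpiLC array 3 (adjusted p up to 0.078), and that of Apc without any one array but KO EpiLC array 3 (up to 0.15). Ctnnb1, the beta-catenin gene itself, averaged 2290 ± 268 in ContinuedCH and 2081 ± 123 in KO EpiLC (log2 difference 0.13, interval -0.11 to 0.37). When the spread came from ContinuedCH and KO EpiLC only, no member of the component list was called. In ESC medium, the log2 differences of Tcf7l1-/- cells minus WT ESC were -1.88 for Porcn, -0.55 for Apc and -0.25 for Tle4, all called. Sfrp1 (-0.14) and Fzd10 (0.29) were not called there.

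Most naive pluripotency genes were not called different between the groups, and both groups held them above WT EpiLC. Of 17 measured members, 1 rose and 2 fell between ContinuedCH and KO EpiLC, with a median log2 difference of -0.06. In each group 13 of the 17 were higher than in WT EpiLC and 1 was lower, with median log2 differences of 1.95 for ContinuedCH and 2.12 for KO EpiLC. Over all genes, 11.2% were higher and 10.5% lower in ContinuedCH than in WT EpiLC, and 12.6% and 12% in KO EpiLC. The 2 counts share the WT EpiLC arrays. Klf2, a Krüppel-like factor of the naive network, read 1386, 1755 and 1556 in ContinuedCH and 1500, 1556 and 1580 in KO EpiLC, with WT EpiLC at 86.7 ± 10.5. The groups overlapped, and the log2 difference was 0.01 with an interval of -0.18 to 0.21. Esrrb, an orphan nuclear receptor and a known target of Tcf7l1 repression, averaged 6752 ± 188 in ContinuedCH, 6390 ± 287 in KO EpiLC and 1490 ± 70.3 in WT EpiLC (log2 difference 0.08, interval -0.05 to 0.21). Nr5a2, another nuclear receptor, averaged 743 ± 58.5 in ContinuedCH, 672 ± 58.7 in KO EpiLC and 27.9 ± 6.1 in WT EpiLC.

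Tbx3, a T-box factor that was below the limit in WT EpiLC, averaged 339 ± 31.2 in ContinuedCH and 315 ± 7.1 in KO EpiLC (log2 difference 0.10, interval -0.30 to 0.50). Tcl1, a cofactor of the kinase Akt, averaged 1382 ± 186 in ContinuedCH and 1438 ± 108 in KO EpiLC, and 45.2 ± 7.4 in WT EpiLC. Zfp42, also called Rex1 and used as the standard reporter of the naive state, averaged 3310 ± 149.7 in ContinuedCH, 3444 ± 259 in KO EpiLC and 468 ± 62.6 in WT EpiLC. Neither group reached every WT ESC level: Esrrb was 11170 ± 877, Tbx3 1444 ± 53.1 and Klf4, another Krüppel-like factor, 1072 ± 208 in WT ESC, where Klf4 was 309 ± 72.1 in ContinuedCH and 262 ± 53.4 in KO EpiLC.

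Dppa3, also called Stella, which protects DNA from methylation in the early embryo, was the naive member that differed most. It read 186, 224 and 149 in ContinuedCH and 723, 830.1 and 816 in KO EpiLC, a 4.29-fold lower level (log2 difference -2.10, interval -2.39 to -1.81, adjusted p = 3.36e-11). Both groups were above WT EpiLC at 47.7 ± 2.5 and WT ESC at 31 ± 5.7, and KO EpiLC+CH stayed high at 552 ± 95.8. Klf5 averaged 2628 ± 182 in ContinuedCH and 1764 ± 258 in KO EpiLC (log2 difference 0.58, adjusted p = 6.12e-05), with 7218 ± 170.2 in WT ESC. Gbx2, a homeobox gene, averaged 714 ± 90.4 in ContinuedCH and 884 ± 92.9 in KO EpiLC, both far below the 3282 ± 108 of WT EpiLC. Its call was lost without ContinuedCH array 1, ContinuedCH array 3 or KO EpiLC array 3 (adjusted p up to 0.13). In ESC medium, the log2 differences of Tcf7l1-/- cells minus WT ESC were 3.29 for Dppa3, -0.80 for Klf5 and -0.33 for Gbx2, all called.

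**Figure D3:**
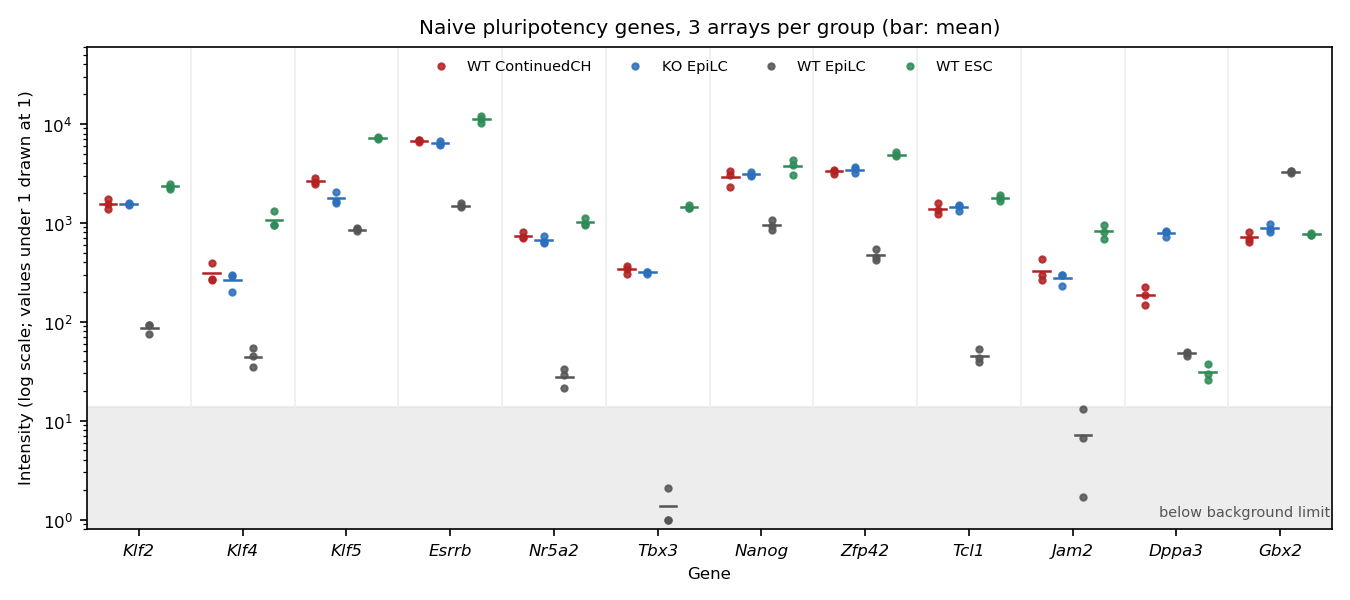
Intensity (log10 axis) of 12 naive pluripotency genes in every array of ContinuedCH, KO EpiLC, WT EpiLC and WT ESC; values under 1 are drawn at 1. Klf2, Esrrb, Nr5a2, Tcl1 and Zfp42 overlap or nearly meet between ContinuedCH and KO EpiLC and lie above WT EpiLC, while Dppa3 is 149 to 224 in ContinuedCH and 723 to 830.1 in KO EpiLC.

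Genes of general pluripotency differed little: of 9 measured, 0 rose and 1 fell, with a median log2 difference of -0.11. The member that fell was Dppa4, a chromatin-associated factor, at 5744 ± 268 in ContinuedCH and 6973 ± 186 in KO EpiLC (log2 difference -0.28, adjusted p = 0.00673); a second probe, at 433 in ContinuedCH and 457 in KO EpiLC, was not called (log2 difference -0.08, adjusted p = 0.887). Pou5f1, the gene of Oct4, averaged 1716 ± 183 in ContinuedCH, 1972 ± 153 in KO EpiLC and 1900 ± 360.0 in WT EpiLC. Other members did move from WT EpiLC. Of the 9, 2 were higher and 3 lower in ContinuedCH, against 11.2% and 10.5% of all genes. In KO EpiLC 1 was higher and 2 were lower, against 12.6% and 12%. Nanog, a naive factor expressed in both, averaged 2896 ± 532 in ContinuedCH and 3093 ± 172 in KO EpiLC, against 952 ± 113 in WT EpiLC.

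Many genes of the formative program of WT EpiLC were lower in both groups, and several of them differed between the groups. Of 18 measured formative and primed genes, 4 rose and 2 fell between ContinuedCH and KO EpiLC, with a median log2 difference of -0.03; the rises were Fgf5, Dnmt3b, Lef1 and Car4, and the falls Krt18 and Etv4. Against the shared WT EpiLC arrays, 10 of 18 were lower in ContinuedCH and 10 of 18 were lower in KO EpiLC, where 10.5% and 12% of all genes were lower. Fgf5, the growth factor that marks the epiblast after implantation, read 33, 15.7 and 19.4 in ContinuedCH and 3.4, 4.5 and 3.1 in KO EpiLC, at least 1.59-fold higher (adjusted p = 0.00396), where WT EpiLC averaged 880.5 ± 98. Dnmt3b, a de novo DNA methyltransferase that rises in the epiblast, read 4093, 4191 and 4142 in ContinuedCH and 2306, 2225 and 2257 in KO EpiLC, a 1.83-fold difference (adjusted p = 1.79e-08), with WT EpiLC at 14390 ± 988. The groups did not overlap for either gene, and both stood far below WT EpiLC.

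Krt18, a simple-epithelium keratin, was below the limit on every ContinuedCH array and averaged 30.6 ± 1.8 in KO EpiLC, at least 2.25-fold lower in ContinuedCH (adjusted p = 6.25e-05). Car4, a carbonic anhydrase, was below the limit in both groups and averaged 1320 ± 117 in WT EpiLC; its call rested on values under the limit, and was lost without each ContinuedCH array in turn and without KO EpiLC array 2 (adjusted p up to 0.27). The brightest members that did not pass were Dnmt3l, Otx2 and Pou3f1. Otx2, a homeobox factor of the formative state, averaged 1051 ± 78.9 in ContinuedCH, 1155 ± 93.7 in KO EpiLC and 2438 ± 34.8 in WT EpiLC. Pou3f1, also called Oct6, averaged 49.3 ± 7.3 in ContinuedCH and 78.5 ± 11.2 in KO EpiLC (adjusted p = 0.522), against 2641 ± 87.8 in WT EpiLC. Dnmt3l, which assists the de novo methyltransferases, averaged 6025 ± 383 in ContinuedCH and 6643 ± 529.6 in KO EpiLC.

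Of 7 DNA methylation enzymes measured, Dnmt3b included, 2 rose and 0 fell, with a median of 0.01. Uhrf1, which recruits the maintenance enzyme, averaged 4871 ± 143 in ContinuedCH and 3949 ± 142 in KO EpiLC (log2 difference 0.30, adjusted p = 0.0377), and that call was lost without any one of the 6 arrays (adjusted p 0.057 to 0.13). Dnmt1 averaged 1042 ± 55.8 in ContinuedCH and 1040 ± 121 in KO EpiLC (log2 difference 0.01, interval -0.15 to 0.17). Of 15 germline and methylation-sensitive genes, 0 rose and 2 fell, with a median of -0.17, and 6 were below the limit in both groups. Asz1, a germ-cell ankyrin-repeat protein on chromosome 6, read 133, 118 and 118 in ContinuedCH and 289, 342 and 329 in KO EpiLC, 2.60-fold lower (adjusted p = 8.4e-09); it was not called when all 47 arrays entered 1 fit (adjusted p = 0.129). Rhox5, an X-linked homeobox gene, averaged 6734 ± 152 in ContinuedCH and 7938 ± 252 in KO EpiLC, and kept its call in 1 of the 6 fits that left out an array, the one without KO EpiLC array 1 (adjusted p up to 0.13). Dazl, an RNA-binding germ-cell protein, averaged 528 ± 60.7 in ContinuedCH and 585 ± 66 in KO EpiLC, and 103 ± 4.7 in WT EpiLC.

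Genes of the primitive streak and mesendoderm, the first tissues to form where Wnt is active in the embryo, were measurable only in part. The streak gene T, also called Brachyury, was not matched to a probe. Of 18 listed genes on the array, 8 were below the limit in both groups, 3 rose and 0 fell, with a median log2 difference of 0.41. The 3 were Sp5 and the homeobox gene Evx1 and the activin antagonist Fst. Evx1 read 57.3, 58.6 and 48.7 in ContinuedCH and 15.7, 16.1 and 15.6 in KO EpiLC, 3.46-fold higher (adjusted p = 2e-05), with 71.8 ± 5.0 in WT EpiLC+CH. Its KO EpiLC values also lay close to the limit of 13.6. Fst averaged 106 ± 9.2 in ContinuedCH and 50.8 ± 11.3 in KO EpiLC, 2.11-fold higher (adjusted p = 0.00075), and was far higher in WT EpiLC+CH at 1112 ± 99.2. Mixl1 was below the limit in both groups, and Eomes, a T-box factor, averaged 11.4 ± 4.1 in ContinuedCH and 20 ± 6.3 in KO EpiLC (adjusted p = 0.31).

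The Nodal pathway, which patterns the epiblast and includes its own inhibitors, gave no call for the 4 members below in the fit over 39 arrays. Nodal read 264, 299.9 and 226 in ContinuedCH and 262, 248 and 257 in KO EpiLC, with WT EpiLC at 85.7 ± 4.6; the groups overlapped, and the log2 difference was 0.03 with an interval of -0.23 to 0.29. Lefty2, a Nodal inhibitor, averaged 925 ± 123 in ContinuedCH, 924 ± 76.5 in KO EpiLC and 53.3 ± 1.1 in WT EpiLC. Lefty1, its paralogue, averaged 1419 ± 129 in ContinuedCH and 1002 ± 55.4 in KO EpiLC (log2 difference 0.50, adjusted p = 0.0588), and was called under 4 of the alternative settings (adjusted p 0.0273 to 0.193 over all of them). Gsc, a homeobox gene of the organiser, averaged 31.3 ± 5.3 in ContinuedCH and 61.1 ± 9.6 in KO EpiLC (adjusted p = 0.108), and 2.6 ± 1.1 in WT EpiLC; it was called with low values floored at the limit (adjusted p = 0.000101). In the BMP pathway 1 of 14 measured genes rose and 0 fell, with a median of -0.09. The gene was the ligand Bmp4, at 289.9, 315 and 342 in ContinuedCH and 176, 177 and 181 in KO EpiLC, 1.77-fold higher (adjusted p = 1.62e-06). In ESC medium, the log2 difference of Tcf7l1-/- cells minus WT ESC for Bmp4 was -2.39 (limma adjusted p = 7.18e-16). The BMP target Id3 averaged 69.2 ± 3.9 in ContinuedCH and 85.8 ± 21 in KO EpiLC (adjusted p = 0.714).

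Readouts of the Fgf and ERK kinase pathway had 1 of 15 higher and 3 lower in ContinuedCH, with a median of -0.13, although both media held the same Fgf2. Egr1, an immediate early gene, read 89.3, 109.9 and 88.6 in ContinuedCH and 239, 239.9 and 279.9 in KO EpiLC, 2.64-fold lower (adjusted p = 1.74e-05), and WT EpiLC averaged 224 ± 16.6. Fos, another immediate early gene, was below the limit on every ContinuedCH array and averaged 21.4 ± 4.8 in KO EpiLC, at least 1.55-fold lower (adjusted p = 0.00274). The ETS factor Etv4 averaged 565 ± 37.9 in ContinuedCH and 922 ± 21.2 in KO EpiLC (log2 difference -0.71, adjusted p = 2.98e-05). Its relative Etv5 went the other way, at 728 ± 93.7 in ContinuedCH and 538 ± 1.3 in KO EpiLC (log2 difference 0.43, adjusted p = 0.0134), and was not called without ContinuedCH array 1 (adjusted p = 0.1). The ERK phosphatase Dusp6 averaged 1400 ± 77.4 in ContinuedCH and 1538 ± 139 in KO EpiLC (adjusted p = 0.376), against 2999 ± 237 in WT EpiLC. Dusp4, of the same family, averaged 154 ± 17.2 in ContinuedCH, 133 ± 2.9 in KO EpiLC and 2078 ± 42.8 in WT EpiLC.

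Targets of LIF and Stat3 had 0 of 11 higher and 2 lower, with a median of -0.17; neither group received LIF. Socs3, the feedback inhibitor of Stat3, read 7.6, 24.2 and 18.2 in ContinuedCH and 64.5, 47.4 and 52.7 in KO EpiLC, 3.64-fold lower (adjusted p = 1.72e-06), with one ContinuedCH array below the limit and WT ESC, which had LIF, at 1258 ± 181. Ifitm3, an interferon-induced membrane protein, averaged 5526 ± 129 in ContinuedCH and 7697 ± 461 in KO EpiLC (log2 difference -0.48, adjusted p = 2.48e-05). Stat3 itself averaged 262 ± 19.6 in ContinuedCH and 249 ± 22.4 in KO EpiLC (adjusted p = 0.914). Among neural genes, 1 of 15 rose and 0 fell, with a median of 0.11. Map2, a microtubule protein of neurons, was the one that rose, at 51.9 ± 4.8 in ContinuedCH and 36.6 ± 6.1 in KO EpiLC, and it lost its call without ContinuedCH array 1 or 2 or KO EpiLC array 1 or 3 (adjusted p up to 0.13).

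The collagen IV genes Col4a1 and Col4a2, the matrix genes Sparc and Nid1, and the keratin genes Krt8 and Krt18 stood lower in ContinuedCH. No laminin gene on the list was called. Of 14 measured adhesion and basement membrane genes, 1 rose and 6 fell, with a median log2 difference of -0.29. The shares were 4.5% and 4.78% over all genes, and 9.02% and 9.34% among genes above the limit. Col4a1 and Col4a2 encode the paired chains of basement membrane collagen IV. Col4a1 read 119.9, 138 and 124 in ContinuedCH and 499, 344 and 398 in KO EpiLC, 3.21-fold lower (adjusted p = 4.75e-12), with WT EpiLC at 297 ± 5.4. Col4a2 read 43.2, 43.2 and 42.9 in ContinuedCH and 172, 146 and 122 in KO EpiLC, 3.37-fold lower (adjusted p = 8.43e-11), with WT EpiLC at 96.5 ± 14. For both chains the groups did not overlap, and the WT EpiLC mean lay between them. In ESC medium, the log2 differences of Tcf7l1-/- cells minus WT ESC were 2.47 for Col4a1 and 2.83 for Col4a2, both called. Krt18 (1.45) and Sparc (0.56) were also called higher there, and Krt8 (0.15) and Nid1 (-0.18) were not called.

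Krt8, the keratin partner of Krt18, read 54.8, 41.8 and 54.7 in ContinuedCH and 184, 182 and 175 in KO EpiLC, 3.61-fold lower (adjusted p = 3.59e-11). Sparc, a matrix glycoprotein that binds collagen IV, averaged 477 ± 41.2 in ContinuedCH, 1100 ± 42.2 in KO EpiLC and 484 ± 47.4 in WT EpiLC (log2 difference -1.21, adjusted p = 3.48e-09). Nid1, the linker protein nidogen, averaged 220.4 ± 25.4 in ContinuedCH and 392 ± 19.6 in KO EpiLC (log2 difference -0.84, adjusted p = 0.000327). Laminin gene Lamc1 did not pass, at 639.9 ± 48.9 in ContinuedCH and 655 ± 28.1 in KO EpiLC, nor did the cadherin gene Cdh1, at 498 ± 74.3 in ContinuedCH and 399.6 ± 19.5 in KO EpiLC (adjusted p = 0.393). The member that rose was Vim, the intermediate filament vimentin, at 576 ± 69.9 in ContinuedCH and 408 ± 15.1 in KO EpiLC (adjusted p = 0.00626). The number that fell was 6 without each array in turn and 5 when the spread came from ContinuedCH and KO EpiLC only.

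Contractile and actin genes, many of them targets of serum response factor, were low in both groups relative to WT EpiLC; of 12 measured, 1 rose and 5 fell between ContinuedCH and KO EpiLC, with a median of -0.46, against 4.5% higher and 4.78% lower over all genes. Ccn2, a matricellular growth factor also known as Ctgf, read 1076, 1034 and 987 in ContinuedCH and 2268, 1928 and 2092 in KO EpiLC, 2.03-fold lower (adjusted p = 2.52e-11). Tpm1, a tropomyosin, averaged 483 ± 9.4 in ContinuedCH and 639.6 ± 25.2 in KO EpiLC (log2 difference -0.40, adjusted p = 0.000417), and 2312 ± 133 in WT EpiLC. Tpm2 averaged 37.6 ± 6.5 in ContinuedCH and 68.1 ± 13.2 in KO EpiLC, and its call was lost without ContinuedCH array 1 or 2 or KO EpiLC array 2 or 3 (adjusted p up to 0.17). The remaining calls, Acta1 and Actg2, rested on values under the limit on all or all but 1 of the 6 arrays. Actg2 was called in 1 of the 6 fits that left out an array, the one without KO EpiLC array 1 (adjusted p up to 0.23). Zyx, the focal adhesion protein zyxin on chromosome 6, rose, at 1247, 1211 and 1180 in ContinuedCH and 687, 544 and 541 in KO EpiLC, 2.07-fold higher (adjusted p = 9.63e-09). Smooth muscle actin, Acta2, averaged 137 ± 2.3 in ContinuedCH, 132 ± 10.9 in KO EpiLC and 2522 ± 99.3 in WT EpiLC. When each array was left out in turn, 3 to 5 members fell. In both groups 5 of the 12 were below the limit. With values floored at the limit 3 fell and the median was 0, and 2 fell when the spread came from ContinuedCH and KO EpiLC only.

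The integrated stress response, a program that Atf4 drives when amino acids are short, had 4 of 13 members higher and 0 lower in ContinuedCH. The median log2 difference was 0.50. The shares were 4.5% higher and 4.78% lower over all genes, and 9.02% and 9.34% among genes above the limit. Chac1, a glutathione-degrading enzyme, read 1056, 1164 and 1195 in ContinuedCH and 468, 338 and 441 in KO EpiLC, 2.76-fold higher (adjusted p = 1.04e-06), with WT EpiLC at 3944 ± 224. Vldlr, a lipoprotein receptor, averaged 98.4 ± 7.2 in ContinuedCH and 40.1 ± 7.0 in KO EpiLC (log2 difference 1.31, adjusted p = 0.000118), and 514 ± 40 in WT EpiLC. Trib3, a pseudokinase, averaged 46.2 ± 5.6 in ContinuedCH and 20 ± 3.8 in KO EpiLC (log2 difference 1.22, adjusted p = 0.00158). The factor gene Atf5 averaged 74.3 ± 4.8 in ContinuedCH and 50.5 ± 1.2 in KO EpiLC (adjusted p = 0.00783). The brightest member, the asparagine synthetase gene Asns, did not pass, at 11440 ± 1520 in ContinuedCH and 10360 ± 42.8 in KO EpiLC (log2 difference 0.13, interval -0.09 to 0.35). Without each array in turn, 4 to 6 members rose.

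In the p53 and stress list, 2 of 12 rose and 2 fell, with a median of -0.02. Cdkn1a, the cell cycle inhibitor p21, read 1556, 1702 and 1345 in ContinuedCH and 896, 794 and 855 in KO EpiLC, 1.80-fold higher (adjusted p = 2.62e-06). Gadd45a averaged 1082 ± 24.1 in ContinuedCH and 1672 ± 49.6 in KO EpiLC (log2 difference -0.63, adjusted p = 4.31e-06). A second Gadd45a probe averaged 745 in ContinuedCH and 846 in KO EpiLC and was not called (log2 difference -0.17, adjusted p = 0.74). Gadd45g averaged 452 ± 29.5 in ContinuedCH and 306 ± 12.3 in KO EpiLC, and Gadd45b 38.5 ± 10.6 in ContinuedCH and 57.6 ± 9.8 in KO EpiLC. Gadd45g lost its call without ContinuedCH array 2 (adjusted p = 0.055), and Gadd45b without ContinuedCH array 1 or 2 or KO EpiLC array 1 or 2 (up to 0.21). Mdm2, the p53 ubiquitin ligase, averaged 1310 ± 136 in ContinuedCH and 1276 ± 372 in KO EpiLC (adjusted p = 0.944).

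Cell cycle genes had 2 of 15 higher and 0 lower, with a median of -0.04. Beside Ccnd1, the member that rose was Cdkn1c, the imprinted inhibitor p57, at 339.7, 338 and 374 in ContinuedCH and 125, 112 and 107 in KO EpiLC, 3.06-fold higher (adjusted p = 3.48e-09), with WT EpiLC at 725 ± 51.5. The replication helicase gene Mcm2 averaged 2224 ± 149 in ContinuedCH and 2200 ± 94 in KO EpiLC (log2 difference 0.01, interval -0.13 to 0.16). Of 13 glycolysis and hypoxia genes, 1 rose and 0 fell, with a median of -0.03: the glucose transporter Slc2a3, at 7776 ± 645 in ContinuedCH and 5686 ± 399.5 in KO EpiLC (log2 difference 0.45, adjusted p = 0.000398). Gapdh averaged 23280 ± 982 in ContinuedCH and 22780 ± 752 in KO EpiLC. Of 13 respiratory chain genes none was called by limma, and the brightest, Atp5b, averaged 25420 ± 865 in ContinuedCH and 28420 ± 4188 in KO EpiLC (adjusted p = 0.281), and was called lower without KO EpiLC array 1 (adjusted p = 0.022).

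Genes listed for the rare 2-cell-like state had 3 of 8 higher and 0 lower, with a median of 0.76, but 5 of the 8 were below the limit in both groups. Zscan4c, the marker of that state, read 38, 31.3 and 19.7 in ContinuedCH, was below the limit on all KO EpiLC arrays, and was at least 2.10-fold higher (adjusted p = 0.0071). Tcstv3 averaged 12.8 ± 2.9 in ContinuedCH and 2.2 ± 1.2 in KO EpiLC, with 1 ContinuedCH array below the limit. Eif1a was bright in both groups, at 2535 ± 41.4 in ContinuedCH and 2108 ± 148 in KO EpiLC, so its call was not read as a sign of rare cells. All 3 calls were lost without KO EpiLC array 1 (adjusted p 0.066 for Zscan4c and 0.057 for Eif1a), and that of Tcstv3 also without ContinuedCH array 1 or KO EpiLC array 2 (up to 0.067).

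A set of 14 genes named in earlier work on these arrays as changed by CHIR99021 within 24 h was not independent of these samples. In it, 7 rose and 2 fell between ContinuedCH and KO EpiLC, with a median of 0.51. Pglyrp1, a peptidoglycan recognition protein, had the largest difference, at 386, 401 and 362 in ContinuedCH and 13.7, 15.2 and 19.8 in KO EpiLC, 23.9-fold higher (adjusted p = 9.12e-16). The KO EpiLC values lay close to the limit of 13.6, so the size of this fold is uncertain. CHIR99021 for 24 h gave 62 ± 5.3 in KO EpiLC+CH and 109 ± 23.3 in WT EpiLC+CH, both well short of the ContinuedCH level. Uap1l1, an enzyme-like relative of a nucleotide sugar pyrophosphorylase, averaged 769 ± 40.5 in ContinuedCH and 294 ± 7.2 in KO EpiLC (log2 difference 1.39, adjusted p = 1.05e-10). Dclk3, a kinase, averaged 243 ± 21.7 in ContinuedCH and 102 ± 10.2 in KO EpiLC (log2 difference 1.26, adjusted p = 7.12e-06). Renbp, the renin-binding protein, averaged 962 ± 56 in ContinuedCH and 455 ± 21.9 in KO EpiLC (log2 difference 1.08, adjusted p = 2.08e-11). Trh, thyrotropin-releasing hormone, on chromosome 6, averaged 5326 ± 247 in ContinuedCH and 4316 ± 455 in KO EpiLC; its call was lost without ContinuedCH array 2 or 3 or KO EpiLC array 1 (adjusted p up to 0.22). The 2 that fell were Nt5e, an ectonucleotidase, at 77.1 ± 0.58 in ContinuedCH and 182 ± 44 in KO EpiLC (log2 difference -1.21, adjusted p = 4.77e-05), and Plcd1, a phospholipase C, at 28.1 ± 13.3 in ContinuedCH and 63.1 ± 10.5 in KO EpiLC. Rasgrp1, an activator of Ras, did not pass, at 461 ± 69.4 in ContinuedCH and 486 ± 12.3 in KO EpiLC, and stood at 21.1 ± 2.3 in WT EpiLC. In ESC medium, the log2 differences of Tcf7l1-/- cells minus WT ESC were -1.89 for Pglyrp1, -1.09 for Uap1l1, -0.90 for Renbp and 0.50 for Zyx, all called. Trh, Dclk3, Fst, Nt5e and Plcd1 were not called there.

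**Figure D4:**
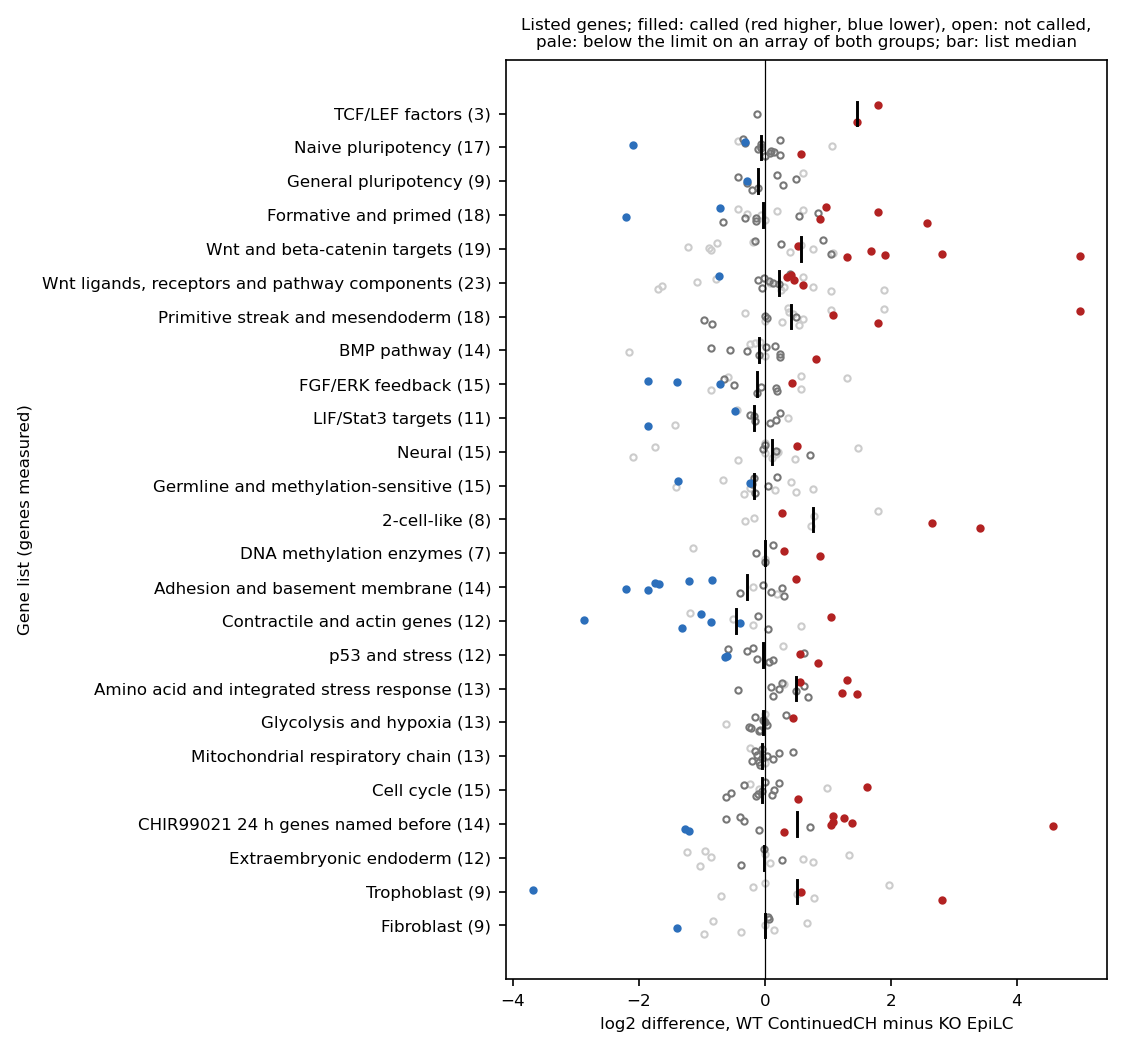
Log2 difference of ContinuedCH minus KO EpiLC for each measured gene of 25 lists, 1 point per gene, with called genes in colour and the list median marked. The Wnt target list has its median at 0.58 and the contractile list at -0.46, while the mitochondrial list has its median at -0.05 and no called gene. With values floored at the background limit, which is not drawn, the Wnt target median was 0.06 and the contractile median 0.

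Markers of other cell types were counted in the same way. For extraembryonic endoderm, none of 12 measured markers was called by limma, 8 were below the limit on all 6 arrays (Gata4, Sox7, Foxa2, Pdgfra, Amn, Afp, Ttr and Apoa1), and the summed intensity was 114.7 to 159.9 in ContinuedCH and 111.6 to 155.0 in KO EpiLC, with 264.2 to 285.0 in WT EpiLC. For trophoblast, 2 of 9 rose and 1 fell, 4 were below the limit on all 6 arrays (Elf5, Hand1, Plac1 and Tpbpa), and the sum was 242.8 to 341.8 in ContinuedCH and 234.6 to 266.1 in KO EpiLC, both above the 58.3 to 96.2 of WT EpiLC. The rises were Cdx2, described above, and Tfap2a. Most of that sum was Tfap2a, an AP-2 factor, at 256 ± 45 in ContinuedCH, 172 ± 32.2 in KO EpiLC and 268 ± 35.2 in WT ESC; its call was lost without ContinuedCH array 1 or 2 or KO EpiLC array 2 or 3 (adjusted p up to 0.13). Gata3, a zinc-finger factor of trophoblast, was below the limit in ContinuedCH and averaged 36.9 ± 12 in KO EpiLC, at least 2.61-fold lower (adjusted p = 0.00097). For fibroblasts, 0 of 9 rose and 1 fell, 6 were below the limit on all 6 arrays (Col1a1, Col1a2, Col3a1, Dcn, Lum and Postn), and the sum was 193 to 200.6 in ContinuedCH and 217.7 to 229.1 in KO EpiLC, both below the 2709 to 2890.0 of WT EpiLC, most of it Acta2. The one that fell was Thy1, at 18.7 ± 2.9 in ContinuedCH and 49 ± 3.1 in KO EpiLC (adjusted p = 8.68e-07). The part of such cells in the differences of basement membrane and keratin genes was not tested.

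Outside the lists, the 12 largest differences in each direction among genes above the limit on all 6 arrays were named by rule. The largest rise was in Phlda2, an imprinted gene on chromosome 7 that restrains placental growth. It read 452, 438 and 515 in ContinuedCH and 60.4, 34 and 35.3 in KO EpiLC, 11.2-fold higher (adjusted p = 4.69e-13). WT EpiLC averaged 574 ± 11.2, WT ESC 659.9 ± 34.9 and KO EpiLC+CH 65.7 ± 12.4, so both groups of Tcf7l1-/- cells named here were low. Pdzrn3, a ubiquitin ligase on chromosome 6, averaged 219 ± 18.4 in ContinuedCH, 69.6 ± 8.0 in KO EpiLC and 843 ± 39 in WT EpiLC (log2 difference 1.66, adjusted p = 2.08e-11). For Phlda2, KO EpiLC+CH lay at 18.3% of the log2 difference from KO EpiLC to ContinuedCH. Pdzrn3 lay further along in KO EpiLC+CH, at 137 ± 11.6 (59.2%). The log2 difference of KO ESC minus WT ESC was -2.78 for Phlda2 (adjusted p = 2.42e-11) and -0.21 for Pdzrn3 (adjusted p = 0.313). Fbln1, the matrix protein fibulin, averaged 598 ± 51 in ContinuedCH and 181 ± 7.3 in KO EpiLC (log2 difference 1.72, adjusted p = 3e-13). Osm, a cytokine of the LIF family, averaged 190.3 ± 21.6 in ContinuedCH and 62.8 ± 10.4 in KO EpiLC (log2 difference 1.60, adjusted p = 2.72e-05), and was below the limit in WT EpiLC. Calb2, the calcium-binding protein calretinin, averaged 179 ± 13.7 in ContinuedCH, 60.6 ± 1.5 in KO EpiLC and 777 ± 60.2 in WT ESC (log2 difference 1.56, adjusted p = 3.98e-10).

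The others in the rising set were Cadps2, Gad1, Gm7609, Tmem82, Ccdc136, Arhgdib and Ms4a10, with folds from 2.82 for Ms4a10 to 5.65 for Cadps2. Cadps2, a protein of dense-core vesicle release on chromosome 6, averaged 118 ± 14 in ContinuedCH and 20.9 ± 1.3 in KO EpiLC (adjusted p = 1.85e-05). Gad1, which makes the transmitter GABA, lost its call without any one of the 6 arrays (adjusted p 0.072 to 0.12). Ccdc136 lost it without ContinuedCH array 2 or 3 or KO EpiLC array 2 or 3 (adjusted p up to 0.12).

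Among the largest falls, Krt17, a stress-associated keratin, read 22.1, 20.7 and 28.2 in ContinuedCH and 130.5, 141 and 137 in KO EpiLC, 5.80-fold lower (adjusted p = 4.84e-11), with WT EpiLC at 39 ± 7.4. Krt42, a keratin of the same type, averaged 131 ± 12 in ContinuedCH and 471 ± 6.9 in KO EpiLC (log2 difference -1.85, adjusted p = 4.14e-11), and 866 ± 28.8 in WT ESC. Anxa2, a membrane-binding annexin, read 592, 594 and 545 in ContinuedCH and 2278, 2440 and 2780 in KO EpiLC, 4.32-fold lower (adjusted p = 2.08e-11), where WT EpiLC averaged 582 ± 35.8. The log2 difference of ContinuedCH minus WT EpiLC was -0.01, and KO EpiLC+CH stayed at 1920 ± 138.

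Crtac1, a secreted cartilage protein, averaged 105 ± 12.6 in ContinuedCH and 419 ± 29.4 in KO EpiLC, and was below or at the limit in WT EpiLC (log2 difference -2.00, adjusted p = 2.31e-08). Vstm2l averaged 67.3 ± 17.4 in ContinuedCH and 288 ± 24 in KO EpiLC (log2 difference -2.12, adjusted p = 1.38e-10). Pde1b, a cyclic nucleotide phosphodiesterase, averaged 96.7 ± 5.4 in ContinuedCH and 369 ± 49.7 in KO EpiLC (log2 difference -1.92, adjusted p = 1.44e-10). Htra1, a secreted serine protease, averaged 43.8 ± 3.0 in ContinuedCH and 154 ± 6.5 in KO EpiLC (log2 difference -1.82, adjusted p = 2.07e-12). Usp9y, a gene of the Y chromosome, averaged 33.6 ± 9.1 in ContinuedCH, 146 ± 20.9 in KO EpiLC and 37.2 ± 7.1 in WT EpiLC (log2 difference -2.14, adjusted p = 0.00703). The others were Mt3, Gm773, Col9a2 and Vax2, between 3.50-fold and 5.22-fold lower; Vax2, a homeobox gene on chromosome 6, kept its call when ContinuedCH array 1 was left out and lost it without each other array (adjusted p up to 0.092).

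Genes measured in only one of the groups gave bounds. Dhrsx, a dehydrogenase, averaged 48 ± 6.5 in ContinuedCH and was below the limit in KO EpiLC, at least 3.51-fold higher (adjusted p = 1.79e-09); it was also below the limit in KO EpiLC+CH and at 77.2 ± 15.4 in WT EpiLC. Plcl2, Ctsw, Fam83e, Minar2 and Aox3 were at least 2.36-fold to 2.77-fold higher. In the other direction, Rgcc, a cell cycle regulator that responds to complement, was below the limit in ContinuedCH and averaged 92 ± 13.9 in KO EpiLC, at least 6.72-fold lower (adjusted p = 0.00227), with WT ESC at 311 ± 32.5. Brdt, a testis bromodomain protein, was below the limit in ContinuedCH and averaged 62.1 ± 9.4 in KO EpiLC, at least 4.53-fold lower (adjusted p = 0.000599). Xpnpep2, Lgals9, Mocos and Def8 were at least 2.35-fold to 4.08-fold lower, and Def8 was not called without ContinuedCH array 3 (adjusted p = 0.079).

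Where WT EpiLC lay relative to both groups was counted for the genes called and above the limit, as a description with no test. Of the 701 genes higher in ContinuedCH, WT EpiLC lay above both groups for 290 (41.4%), below both for 175 (25%) and between them for 236 (33.7%). Of the 726 lower in ContinuedCH, WT EpiLC lay below both for 332 (45.7%), above both for 163 (22.5%) and between for 231 (31.8%). WT EpiLC was nearer to ContinuedCH than to KO EpiLC for 415 of the higher genes (59.2%) and 460 of the lower genes (63.4%).

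KO EpiLC+CH, which carry the mutation and also had CHIR99021 for 24 h, were placed in the same way. The genes were chosen because ContinuedCH and KO EpiLC differed, and the means of these groups set the ends of the scale. Noise in those means can give a positive median by itself. For the 701 higher genes KO EpiLC+CH lay at a median of 29.5% of the log2 difference from KO EpiLC to ContinuedCH, and 199 genes (28.4%) lay nearer ContinuedCH. For the 726 lower genes the median was 32.3%, and 198 genes (27.3%) lay nearer ContinuedCH. Of the 12 largest rises outside the lists, 3 lay nearer ContinuedCH, and of the 12 largest falls, 0 did. The arrays correlated at 0.974 to 0.982 between ContinuedCH and KO EpiLC+CH over the probes above the limit, against 0.965 to 0.978 between ContinuedCH and KO EpiLC. The times in CHIR99021 differed between ContinuedCH and KO EpiLC+CH, so this does not isolate the genotype.

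Genes were also grouped by contrasts that used none of the 6 arrays, and the difference between ContinuedCH and KO EpiLC was then read in each class, again without a test. For reference, 4.5% of all genes were higher and 4.78% lower in ContinuedCH, and 9.02% and 9.34% of genes above the limit. CHIR99021 for 24 h raised 609 genes in wild-type EpiLC (3.67%) and lowered 643 (3.88%). Of the 609, 24.6% were higher and 6.57% lower in ContinuedCH than in KO EpiLC, with a median of 0.12, and of the 643, 4.51% were higher and 29.2% lower, with a median of -0.201. In 4XKO EpiLC, which lack all of the TCF/LEF factors, CHIR99021 raised 167 genes (1.01%) and lowered 249 (1.5%). Of the 167, 31.7% were higher and 1.2% lower in ContinuedCH, and of the 249, 6.02% were higher and 33.7% lower.

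In classes built on the loss of Tcf7l1 the shares between ContinuedCH and KO EpiLC ran the other way. KO ESC carry the same genotype as KO EpiLC. Loss of Tcf7l1 in ESC, KO ESC minus WT ESC, gave 849 higher genes (5.12%) and 954 lower genes (5.75%). Of the 849, 4% were higher and 24% lower in ContinuedCH than in KO EpiLC, and of the 954, 25.9% were higher and 6.5% lower. Loss of Tcf7l1 on top of the other factors, 4XKO EpiLC minus 3XKO EpiLC, gave 2014 higher (12.1%) and 1934 lower (11.7%). Of the 2014, 4.32% were higher and 20.6% lower in ContinuedCH, with a median of -0.147, and of the 1934, 21.1% were higher and 5.48% lower, with a median of 0.162. The step from WT ESC to WT EpiLC raised 2857 genes (17.2%) and lowered 2626 (15.8%). These showed no such tilt: of the 2857, 8.16% were higher and 9.59% lower in ContinuedCH, and of the 2626, 11.1% were higher and 11.5% lower, with medians of -0.012 and 0.002.

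**Figure D5:**
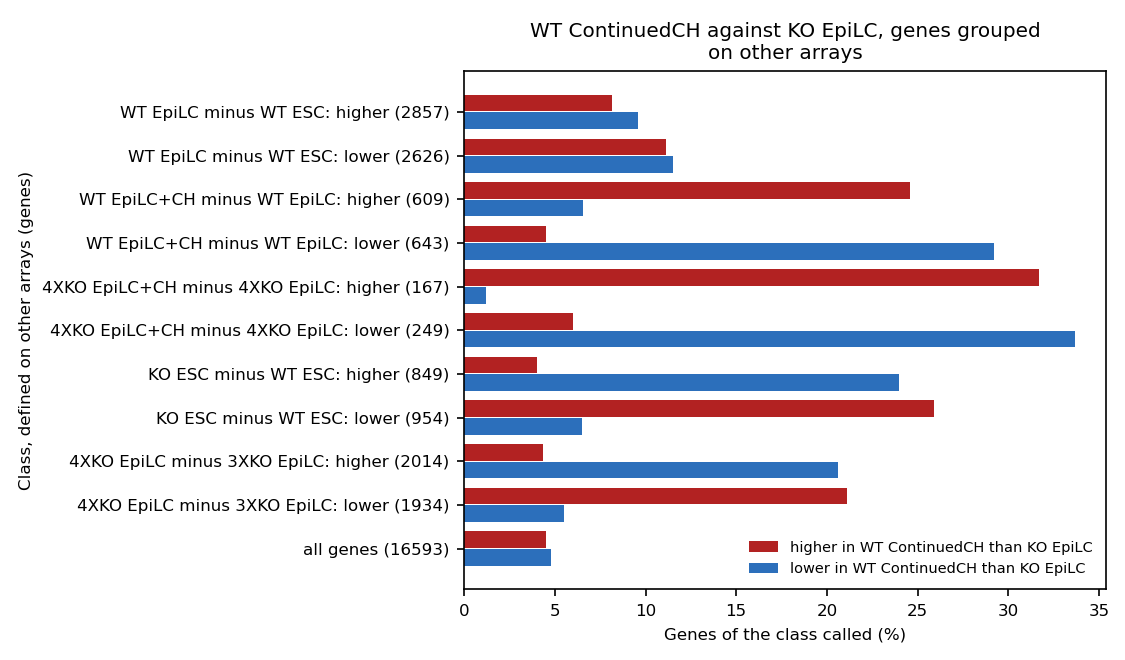
Share of genes (%) called higher and lower in ContinuedCH than in KO EpiLC within classes of genes defined on other arrays, beside all 16593 genes. Genes raised by CHIR99021 in WT EpiLC are higher in 24.6% and lower in 6.57%, while genes raised in KO ESC are higher in 4% and lower in 24%.

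Among genes with a mean intensity over 100, chromosome 6, which carries Tcf7l1, had the largest share of lower genes. Of its 265 such genes, 20 were higher (7.55%) and 47 lower (17.7%) in ContinuedCH, with a median log2 difference of -0.09. On the other chromosomes the lower share ran between 5.36% on chromosome 17 and 15.2% on chromosome 7. The median of KO EpiLC minus WT EpiLC on this chromosome was 0.205 and that of ContinuedCH minus WT EpiLC 0.082. Chromosome 14 had the largest share of higher genes, 15.3%, with a median of 0.088. Several genes named above lie on chromosome 6, and the part of their position in these differences was not tested. Without probes of chromosomes 1 and 6, 1810 probes were called.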

How the data were processed

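RNA, extracted with TRIZOL and RNeasy per the labels' protocols, was measured on Illumina mouse arrays. The deposited values are intensities on a linear scale that the authors had background-subtracted and quantile-normalized within each of 2 sets, of 39 and 8 arrays, judged from the values and the table's columns; the submitters' processing notes name lumi and limma, and their versions are not given in the sources used here. Probe symbols came from the platform annotation: 23978 probes had 1 symbol, 1719 none and 0 several. Groups were taken from titles, genotype and growth labels.

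Intensities were floored at 1, put on the log2 scale, quantile-normalized again over the 39 arrays and fitted with limma 3.58.1 in R 4.3.3 (1 coefficient per group, 13 groups, eBayes with a constant prior). Adjusted p-values are Benjamini-Hochberg over 25697 probes, called under 0.05. A gene is its probe with the highest mean. Where all arrays of 1 group lay under 13.6, the fold is a lower bound against that limit, and where both did, no fold is given. Negative intensities are printed as deposited. Scripts used Python 3.11.15, and figures matplotlib 3.10.9.

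The members of the comparison and the 25 gene lists (332 genes, of which 304 had a probe) were chosen with earlier results of these data known, so their counts are descriptions. Named genes were the called list members with the largest change (up to 5 per list) and the brightest uncalled ones (up to 3), the 12 largest called changes each way outside the lists among genes above the limit on all 6 arrays, and the 6 largest bounds each way; further members, named to complete a list or to give a defining marker, were chosen after their values were seen. On simulated data the fit called 71.6% of probes changed 1.5-fold in this comparison, 89.6% of those changed 2-fold and 97% of those changed 4-fold, with 11 false calls among 25497 unchanged probes. The changed probes were drawn only from those well above the limit in KO EpiLC, so these rates do not cover genes near the limit. The simulated noise was normal, with the same spread in every group, so the false calls say nothing about groups of unequal spread. Promoter sequences are from RefSeq, build GRCm38.p6.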

Additional observations from a re-analysis of the deposited data

How the results depend on the processing

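With the spread estimated from the compared groups alone, 718 probes differed between ContinuedCH and KO EpiLC, and fewer arrays entered that estimate. Under the other alternatives (cyclic loess, no second normalization, the floor at the background limit, the dimmest 33.3% of probes left out, a trended and robust prior, all 47 arrays, 1 probe per gene, KO EpiLC arrays 2 and 3 averaged, chromosomes 1 and 6 left out) the count was 1514 to 2263. Leaving out 1 array at a time gave 1520 to 1951 probes for ContinuedCH minus KO EpiLC, 4354 to 4583 for ContinuedCH minus WT EpiLC and 4860 to 5330 for KO EpiLC minus WT EpiLC. The share of higher calls, 48.5%, was 41.4% with the spread of those groups alone, 45.1% with cyclic loess and 52.8% without ContinuedCH array 3 (907 higher, 810 lower), which turned the balance; the other fits that left out an array gave 47% to 49.6%. No named gene called in the main fit or in the alternative reversed its direction under any of these settings. Changes of sign in genes called in neither fit were not counted.

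Arrays with the same replicate number did not deviate together in every pair (r = 0.241, 0.039 and 0.162 between ContinuedCH and KO EpiLC), so the numbers were not taken as pairs. A replicate block gave 2194 probes for ContinuedCH minus KO EpiLC, 5134 for ContinuedCH minus WT EpiLC and 5765 for KO EpiLC minus WT EpiLC; among the named genes it added calls for Sp8 and Lefty1 and removed none. With the floor at the limit, the calls of Acta1, Actg2, Car4, Cdx2, Fos and Tcstv3 were lost, and Gsc, Pou3f1 and Sp8 were called. With all 47 arrays in 1 fit, 11 named genes lost their call: Actg2, Apc, Asz1, Car4, Eif1a, Gadd45b, Gadd45g, Gbx2, Nt5e, Tfap2a and Trh. With KO EpiLC arrays 2 and 3 averaged, 14 did: Actg2, Apc, Car4, Cdx2, Fzd10, Gadd45b, Gbx2, Rhox5, Tfap2a, Tpm2, Uhrf1, Gad1, Ccdc136 and Vax2. The trended and robust prior removed Apc and Car4. Lefty1 was called with that prior, without the dimmest probes and with 1 probe per gene, and Sp8 in the last 2 of these. Further probes of named genes gave the same verdict in 143 cases, were called only at the main probe in 34 (among them probes above the limit of Dnmt3b, Dppa4, Fzd10, Gad1, Gadd45a, Gadd45g, Porcn, Tfap2a and Tle4), only at the other probe in 3 (Wnt8a, Cdx1 and Ddit3), and opposed it in 0. The number of arrays, 3 per group, limits the precision.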
